A study of Mus musculus with 6 samples.

Results

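The Toll-like receptor family of the mouse was followed in myeloid cells with and without induction of PU.1. The 10 genes Tlr1 to Tlr9 and Tlr13 were chosen by name, and each was represented by the array's only transcript cluster, that is the set of probes for 1 gene, annotated with that single symbol. All 10 were found among the 22180 genes tested. The cells were myeloid cells of mouse fetal liver cultured with 1 ng/ml GM-CSF, a cytokine on which granulocytes and macrophages grow. The 3 uninduced samples (A, B and C) received no doxycycline, and the 3 induced ones (A, B and C) received doxycycline at 1000 ng/ml for 72 hours, which the labels give as expression of PU.1, a transcription factor of the ETS family that is encoded by Spi1. The labels name neither the construct, the strain nor the number of animals or clones behind the cells, and they give no sample with doxycycline alone, so effects of the drug and of PU.1 cannot be told apart. Whether A, B and C were separate cultures is not stated, so the p-values measure no more than the spread among these samples, possibly a technical one.

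Toll-like receptors are membrane proteins of innate immune cells that recognise molecules of microbes with an ectodomain of leucine-rich repeats and signal through a cytoplasmic TIR domain. Tlr3, Tlr7, Tlr8, Tlr9 and Tlr13 act in endosomes, where they meet nucleic acids of ingested microbes or dying cells, whereas Tlr1, Tlr2, Tlr4, Tlr5 and Tlr6 act at the cell surface on lipids and proteins of bacteria and fungi. Signals pass through the adaptors MyD88 and TRIF to NF-kappaB and interferon regulatory factors.

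The deposited values are log2 expression values, and a difference, always induced minus uninduced, of 1 is a doubling. The induced arrays B and C stood apart from the other 4: their interquartile ranges over all transcript clusters were 2.17 and 2.21, against 2.37 to 2.62. The 1394 measured genes of olfactory and vomeronasal receptors, which myeloid cells are not known to need, served as reference genes, and a value at or below their 95th percentile on an array is said to lie in the range of background. That percentile was between 7.05 and 7.37 on the uninduced arrays and was 7.39, 7.99 and 7.85 on induced A, B and C. The median change of these reference genes was 0.28, and that of the 5391 genes above the range of background on all 6 arrays was -0.31. Dim genes as a whole were thus higher, and bright genes as a whole lower, on the induced arrays. Of the markers of the labelled lineage some were far above that range, among them the granule protease gene Elane (13.31 to 13.50 over the 6 arrays) and the monocyte surface antigen gene Ly6c2 (12.85 to 12.97). Others were above it on none of the arrays, among them 7 of 12 macrophage markers, with the growth factor receptor gene Csf1r, and 3 of 13 neutrophil markers, Ly6g, Mmp9 and Retnlg. Spi1 itself was at 8.80, 8.65 and 8.84 on uninduced and 9.13, 9.04 and 9.05 on induced arrays A to C. It was higher on all 3 induced arrays, but the difference of 0.31 (SE 0.12) did not pass the test (limma adjusted p = 0.152), and the labels do not say whether its probes read the introduced transcript.

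In the induced cells Tlr8 rose, and it was the only member of the family past the test. Of the 10 members 1 was called higher and 0 lower by limma at an adjusted p under 0.05, where 0.374% and 1.05% of all genes tested were called higher and lower. At an unadjusted p under 0.05 the numbers were 5 higher and 1 lower, where 11.4% and 16.9% of all genes tested were higher and lower. For 6 members all 3 induced values lay above the 3 uninduced ones, and for 1, Tlr7, all lay below, against 16.0% and 15.4% of all genes tested. Apart from Tlr8, these 6 members were in the range of background on all 6 arrays. Among all genes in that range on all 6 arrays, 24.9% had all induced values above and 1.65% all below. Among the 5391 genes above that range on all 6 arrays, 33.1% had all induced values below and 248 genes all above. Tlr7 belongs to neither of these groups. No filter on low values was applied. Tlr2 and Tlr4 were above the range of background on all 6 arrays, Tlr7 and Tlr8 on some of them, and the 6 others, Tlr1, Tlr3, Tlr5, Tlr6, Tlr9 and Tlr13, on none. For those 6 the arrays give no level beyond background, and no fold is given. In bulk RNA a smaller share of cells of a type and less RNA per cell cannot be told apart, which applies to every value below.

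**Figure D1:**
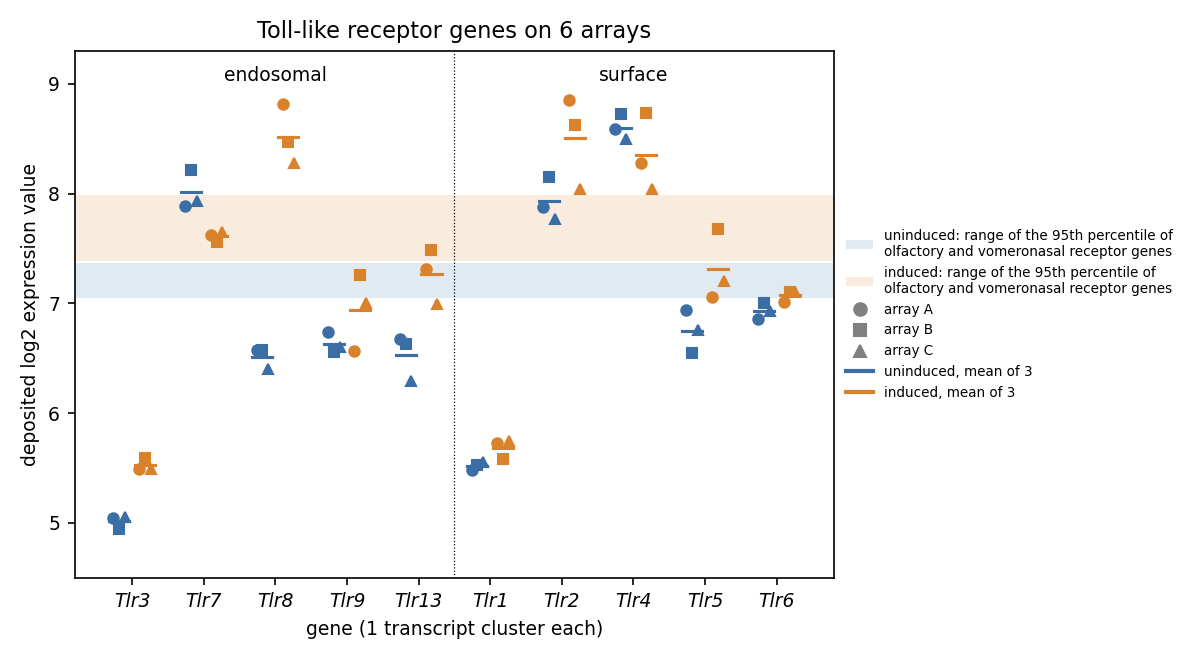
Deposited log2 expression values (vertical axis) of the 10 Toll-like receptor genes (horizontal axis) on the 3 uninduced (blue) and 3 induced (orange) arrays, with the group mean as a line; shaded bands span the 95th percentile of olfactory and vomeronasal receptor genes over the arrays of each group. Tlr8 is the only gene whose induced values all lie above the bands while its uninduced values lie below them.

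Tlr8, an endosomal receptor, lies on chromosome X from 167241123 to 167264329 (mm10). Its log2 value was 6.57, 6.57 and 6.40 on uninduced arrays A to C and 8.81, 8.47 and 8.28 on induced arrays A to C. The 3 uninduced arrays were in the range of background and the 3 induced arrays above it, with no overlap. The group means were 6.51 ± 0.10 and 8.52 ± 0.27 (SD, n = 3 each). The measured difference was 2.00 (SE 0.16, 95% interval 1.66 to 2.35, limma adjusted p = 0.000237). Since the starting level is only a bound, the rise is given as at least 2.41-fold on the deposited scale. This bound starts from the mean of the reference percentile on the uninduced arrays, and no shift of the reference genes is taken off. Tlr8 was called when any 1 of the 6 arrays was left out, with differences between 1.86 and 2.12 and adjusted p between 0.000153 and 0.00325. Against the uninduced mean the rise was 2.30 on induced A, 1.95 on B and 1.76 on C, while the median reference gene moved by 0.060, 0.45 and 0.29. The rise was highest on induced A, and its relation to the movement of the reference genes was not tested. Centring each array on the median of the reference genes left a difference of 1.69 (adjusted p = 0.0346).

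By distance over the 6 arrays, after each gene's mean was removed, the genes nearest to Tlr8 among 10261 candidates were Mmp8, a neutrophil collagenase, at 0.37, Adgre1, the F4/80 antigen of macrophages, at 0.47, and Bst1, a cell surface enzyme of the ADP-ribosyl cyclase family, at 0.53. Each rose as well, by 1.99, 2.16 and 2.35, but they were picked for values like those of Tlr8 on the same arrays. Their rises therefore follow from the choice and are no further evidence. This likeness is a description of 6 arrays that fall into the same groups for every gene.

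Tlr7, the neighbouring receptor for single-stranded RNA, lies on the same chromosome from 167303380 to 167330574, 39050 bases from Tlr8 with 0 protein-coding genes between them in the RefSeq table. It did not move with Tlr8. Its values were 7.89, 8.22 and 7.94 on uninduced arrays A to C and 7.62, 7.56 and 7.65 on induced arrays A to C. The induced arrays were all lower, and only induced A among them was above the range of background. The difference was -0.40 (SE 0.13, 95% interval -0.70 to -0.11) and did not pass the test (limma adjusted p = 0.124). Its size depends on the scaling. It was -0.24 (limma adjusted p = 0.262) after cyclic loess, a scaling that evens out shifts that depend on brightness. Centred on the reference genes it was -0.72 (limma adjusted p = 0.114). Tlr8 minus Tlr7 went from -1.50 ± 0.17 to 0.91 ± 0.28 (SD, n = 3 each), a shift of 2.41 between the groups, which did not overlap. The exact two-sided permutation p was 0.1, the smallest that 3 arrays against 3 can give. The difference of 2 probe sets on an array shows unequal change, not which transcript is more abundant.

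Tlr13, an endosomal receptor for bacterial ribosomal RNA (chromosome X, 106143275 to 106160493), had the second largest difference of the family. It was at 6.67, 6.63 and 6.29 on uninduced arrays A to C and at 7.31, 7.49 and 6.99 on induced arrays A to C. The groups did not overlap, but all 6 values lay in the range of background. The difference of 0.73 (SE 0.17, 95% interval 0.36 to 1.10) missed the threshold, with a limma adjusted p of 0.0619. It was 0.41 (adjusted p = 0.181) when the arrays were centred on the reference genes. Without induced A it passed, at 0.71 (adjusted p = 0.0248), in a fit that called 1998 genes higher and 3535 lower, against 83 and 232 with all arrays.

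Tlr3, the receptor for double-stranded RNA that signals through TRIF (chromosome 8, 45395665 to 45411075), was dim on every array. Its values were 5.04, 4.95 and 5.06 on uninduced arrays A to C and 5.49, 5.59 and 5.49 on induced arrays A to C. The spread within each group, 0.061 and 0.057 (SD), was small beside the difference of 0.51 (SE 0.12), which had a limma adjusted p of 0.0719. On induced A the difference from the uninduced mean was 0.47, above the 95th percentile of 0.41 among the reference genes on that array, while on B and C it was 0.57 and 0.48, within their 25th to 75th percentiles (0.21 to 0.73 and 0.12 to 0.50). With the arrays centred on the reference genes the Tlr3 difference was 0.19 (adjusted p = 0.393).

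Tlr9, the receptor for unmethylated CpG DNA (chromosome 9, 106222598 to 106226876), was at 6.74, 6.55 and 6.60 on uninduced arrays A to C and at 6.56, 7.26 and 7.005 on induced arrays A to C. Induced A lay within the uninduced values, and induced B and C above them. The difference of 0.31 (SE 0.18, 95% interval -0.078 to 0.70) did not pass the test (limma adjusted p = 0.242), and it was -0.0064 after centring on the reference genes.

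The sequence upstream of Tlr8, Tlr13 and Tlr9 is shown because these endosomal receptor genes each hold the purine-rich core GAGGAA that is part of sites bound by PU.1. The windows are the 250 bases before the RefSeq start in GRCm38.p6, written 5′ to 3′ on the gene's strand, with the core, on either strand, in capitals. The first base of the match lies 77 bases before the start for Tlr8 (reverse strand), 83 for Tlr13 and 112 for Tlr9. They span chrX:167264330-167264579 on the minus strand for Tlr8, chrX:106143025-106143274 on the plus strand for Tlr13 and chr9:106222348-106222597 on the plus strand for Tlr9.
Tlr8: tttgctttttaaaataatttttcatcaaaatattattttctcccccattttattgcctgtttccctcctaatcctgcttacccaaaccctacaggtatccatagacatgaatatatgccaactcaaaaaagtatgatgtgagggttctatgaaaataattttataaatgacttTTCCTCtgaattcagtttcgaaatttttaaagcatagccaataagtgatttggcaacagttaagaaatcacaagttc
Tlr13: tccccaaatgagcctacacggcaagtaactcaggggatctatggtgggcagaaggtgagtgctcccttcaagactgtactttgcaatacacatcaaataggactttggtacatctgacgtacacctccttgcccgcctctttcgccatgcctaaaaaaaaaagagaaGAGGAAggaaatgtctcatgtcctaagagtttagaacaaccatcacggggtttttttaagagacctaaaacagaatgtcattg
Tlr9: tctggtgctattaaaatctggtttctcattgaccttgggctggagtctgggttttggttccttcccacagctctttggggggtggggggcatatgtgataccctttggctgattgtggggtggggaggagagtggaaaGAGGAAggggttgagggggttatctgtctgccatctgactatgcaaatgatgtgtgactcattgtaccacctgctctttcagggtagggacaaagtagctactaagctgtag

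RefSeq windows were matched for 8 of the 10 members, and the core was found in 4 of these 8, Tlr1 besides the printed ones. It occurs in 25.9% of the 27025 genes with a window and in 23.3% of all 32851 windows of this length, searched on both strands, with no other motif searched. Tlr2, Tlr3, Tlr5 and Tlr6 had no match in theirs. A match is a description of these letters and no evidence of binding.

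Of the 5 surface receptors 0 passed the test, and 2, Tlr2 and Tlr5, were higher at an unadjusted p under 0.05 by limma (11.4% of all genes tested). Tlr2, which pairs with Tlr1 or Tlr6 to bind bacterial lipopeptides (chromosome 3, 83836272 to 83841824), was at 7.88, 8.15 and 7.77 on uninduced arrays A to C and at 8.85, 8.62 and 8.04 on induced arrays A to C. It was above the range of background on all 6 arrays, and induced C lay within the uninduced values while induced A and B lay above them. The difference was 0.57 (SE 0.20, 95% interval 0.12 to 1.02, limma adjusted p = 0.133). It was 0.92 on induced A, 0.69 on B and 0.11 on C, so it varied more between the induced arrays (SD 0.42) than between the uninduced ones (SD 0.20). Cyclic loess, which evens out shifts that depend on brightness, gave 0.84 (adjusted p = 0.064).

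Tlr4, the receptor for lipopolysaccharide (chromosome 4, 66827551 to 66846581), was at 8.58, 8.72 and 8.50 on uninduced arrays A to C and at 8.28, 8.73 and 8.04 on induced arrays A to C. The groups overlapped, with induced B level with uninduced B. The difference of -0.25 (SE 0.18, 95% interval -0.64 to 0.14, limma adjusted p = 0.326) was 0.062 after cyclic loess, so its direction depends on the scaling.

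Tlr5, the receptor for flagellin (chromosome 1, 182954752 to 182976044), was at 6.94, 6.54 and 6.76 on uninduced arrays A to C and at 7.06, 7.67 and 7.21 on induced arrays A to C. The induced values were all higher, but all 6 lay in the range of background. Its difference was 0.57 (SE 0.18, limma adjusted p = 0.118), and 0.25 after centring on the reference genes. Tlr1 and Tlr6, neighbours on chromosome 5 (64924680 to 64933600 and 64953092 to 64970942) that partner Tlr2, stayed within narrow ranges. Tlr1 ran from 5.48 to 5.56 in uninduced and from 5.58 to 5.74 in induced cells, and Tlr6 from 6.86 to 7.01 and from 7.02 to 7.11. Their differences of 0.16 and 0.14 (SE 0.12 each, limma adjusted p = 0.351 and 0.403) became -0.15 and -0.17 after centring on the reference genes, and that of Tlr1 was -0.037 after cyclic loess. Tlr1 minus Tlr6 shifted by 0.019 between the groups (exact two-sided permutation p = 0.8, smallest possible 0.1). Tlr11 and Tlr12, the other mouse receptors of the family on the array, were placed in neither the endosomal nor the surface class here. They were within the range of background on every array. Their differences of 0.38 and 0.063 did not pass the test (limma adjusted p = 0.135 and 0.726).

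Set side by side, the 5 endosomal receptors had 1 member called higher, 0 called lower and a median change of 0.51, and the 5 surface receptors had 0 called in either direction and a median of 0.16, beside a median of 0.058 over all genes tested. Per induced array the endosomal median was 0.47, 0.63 and 0.46 on A, B and C, and the surface median 0.21, 0.17 and 0.18. The endosomal median was the higher on all 3, but the endosomal changes ran from -0.40 to 2.00 and the surface changes from -0.25 to 0.57, so the classes overlapped widely. Without the brightness shift the medians were 0.33 and 0.062 (cyclic loess), and centred on the reference genes 0.19 and -0.15. Each list also holds 3 genes that were in the range of background on all 6 arrays, and these set the medians as deposited. The median of 0.51 was the value of Tlr3 and that of 0.16 the value of Tlr1. On induced A, B and C the endosomal medians were those of Tlr3, Tlr9 and Tlr13. The surface median was that of Tlr1 on A and of Tlr6 on B and C. The difference between the classes was not tested.

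**Figure D2:**
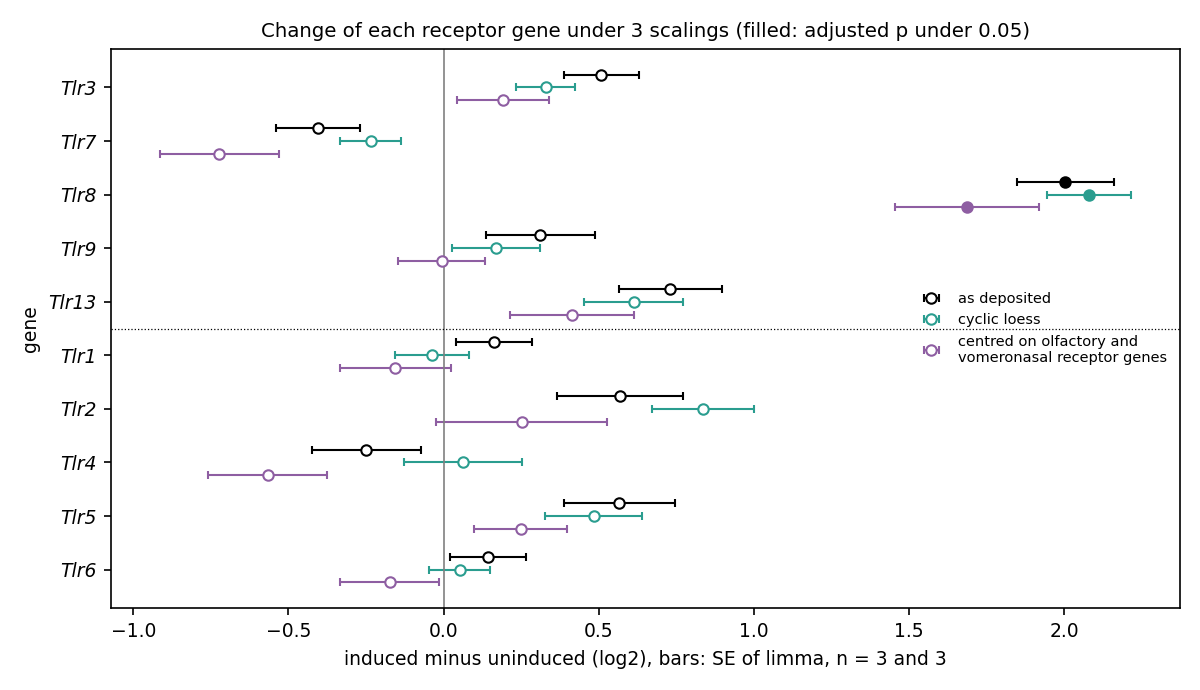
Change of each receptor gene (vertical axis), induced minus uninduced on the log2 scale (horizontal axis), as deposited, after cyclic loess and after centring on the reference genes; bars are the standard error of limma and filled points have an adjusted p under 0.05. Tlr8 stays between 1.69 and 2.08, whereas Tlr1, Tlr4, Tlr6 and Tlr9 lie on both sides of 0.

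**Figure D3:**
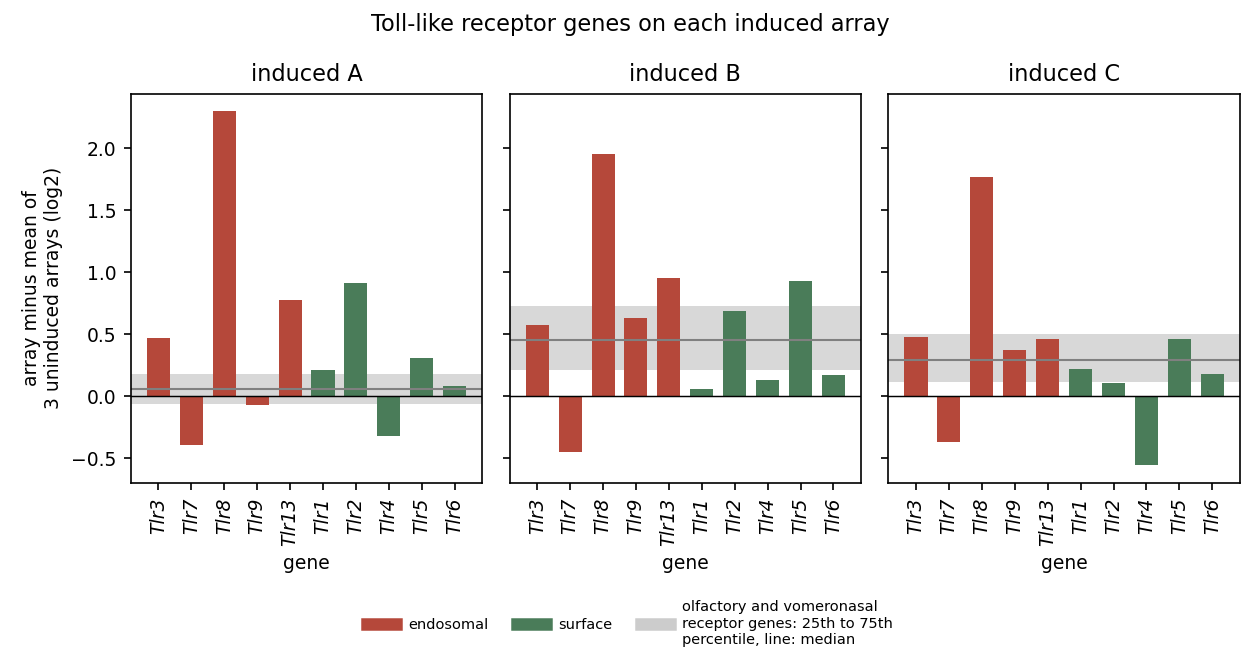
Difference of each induced array from the mean of the 3 uninduced arrays (vertical axis, log2) for the 10 receptor genes (horizontal axis), beside the 25th to 75th percentile (grey) and median (line) of the reference genes on that array. The grey range is near 0 on induced A and shifted upward on B and C, and Tlr8 stands above it on all 3 arrays.

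The rest of the pathway was taken from lists of co-receptors, trafficking proteins, signalling genes and targets. Of 106 measured genes 1 was called higher and 1 lower by limma, and 10 were higher and 21 lower at an unadjusted p under 0.05. Of all genes tested 0.374% were called higher and 1.05% lower, and 11.4% were higher and 16.9% lower at that unadjusted threshold. These shares are the background for the counts above and for those of each list below. The gene called higher was Pld4, an endolysosomal exonuclease that degrades single-stranded nucleic acids, ligands of endosomal receptors such as Tlr7. It was at 6.48, 6.45 and 6.21 on uninduced arrays A to C and at 9.78, 8.57 and 8.12 on induced arrays A to C. As with Tlr8, the uninduced arrays were in the range of background and the induced arrays above it, and induced A was the highest. The difference was 2.45 (SE 0.33, limma adjusted p = 0.00585), a rise of at least 2.98-fold on the deposited scale. This bound was set as for Tlr8, with no shift of the reference genes taken off. After centring on the reference genes the difference was 2.13 and missed the threshold (limma adjusted p = 0.0916). Pld3, the related exonuclease, was at 8.91 ± 0.13 and 8.77 ± 0.16 (SD, n = 3 each; limma adjusted p = 0.478).

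Folding and trafficking genes held 0 calls by limma among 10, with 1 higher and 0 lower at an unadjusted p under 0.05. Unc93b1, which carries the endosomal receptors from the endoplasmic reticulum, was at 9.04, 9.09 and 9.33 on uninduced arrays A to C and at 9.77, 9.32 and 9.38 on induced arrays A to C, with overlapping groups (difference 0.33, SE 0.16, limma adjusted p = 0.184). The chaperone genes Hsp90b1 and Cnpy3 had differences of -0.27 and -0.16 (adjusted p = 0.258 and 0.506). Lrrc59, Tmed7, Ap3b1, Slc15a4 and Cnpy4, which serve the folding, export or sorting of the receptors, had differences of -0.31, -0.28, -0.24, -0.31 and -0.30, and Rab7b, in the range of background, a difference of 0.12 (limma adjusted p between 0.207 and 0.527). Slc15a3, an endolysosomal transporter of histidine and peptides, had the largest difference of the list, at 0.70 (SE 0.16, adjusted p = 0.0707), with all 6 values in the range of background. The proteases that cleave the receptor ectodomains had 0 calls among 5, with 1 higher at an unadjusted p under 0.05. Ctsb and Ctsl, above the range of background on every array, had differences of -0.072 and -0.38 (limma adjusted p = 0.682 and 0.25), and Ctss, in the range of background on all 6 arrays, a difference of 0.45 (adjusted p = 0.122). Ctsk and Lgmn, also in that range, had differences of 0.17 each (adjusted p = 0.392 and 0.409).

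Of the 8 surface co-receptors Cd36, a scavenger receptor that assists Tlr2 and Tlr6, fell, from 6.61, 7.17 and 6.94 on uninduced arrays A to C to 5.67, 6.14 and 5.51 on induced arrays A to C (difference -1.14, SE 0.19, limma adjusted p = 0.0189). Only uninduced B was above the range of background, so no fold is given. The call ended without uninduced B, uninduced C or induced C, at differences of -1.004, -1.12 and -1.01 (adjusted p = 0.0795, 0.0587 and 0.102). Ly96, which encodes the lipopolysaccharide-binding partner of Tlr4, was at 8.44 ± 0.13 and 8.41 ± 0.18 (SD, n = 3 each). Cd14, which hands lipopolysaccharide to that pair, was at 8.87, 9.40 and 8.60 in uninduced and 8.24, 8.85 and 7.44 on induced arrays A to C, a difference of -0.78 (SE 0.31) that did not pass the test (limma adjusted p = 0.153). Itgam, the CD11b integrin chain, had a difference of 0.60 (SE 0.24, adjusted p = 0.152), and its partner chain Itgb2 one of -0.36 (SE 0.13, adjusted p = 0.134). Lbp, the lipopolysaccharide-binding protein gene, had a difference of -0.34 (SE 0.16, limma adjusted p = 0.187). Cd180 and Ly86, which encode a receptor complex related to that of Tlr4, lay in the range of background, with differences of 0.11 and 0.14 (adjusted p = 0.564 and 0.499).

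Among the adaptors 0 of 6 were called, with 1 higher and 1 lower at an unadjusted p under 0.05. Myd88, the adaptor of all members named here except Tlr3, was at 10.03 ± 0.18 and 9.84 ± 0.28 (SD, n = 3 each; limma adjusted p = 0.409). Ticam1, which encodes TRIF, had a difference of -0.24 (SE 0.16, adjusted p = 0.306), and Ticam2, which links TRIF to Tlr4, a difference of 0.46 (SE 0.13, adjusted p = 0.101) within the range of background. Tirap, the bridge from Tlr2 and Tlr4 to MyD88, and Pik3ap1, an adaptor of phosphoinositide 3-kinase, had differences of -0.36 and -0.37, and Sarm1, in the range of background, a difference of 0.16 (limma adjusted p = 0.22, 0.154 and 0.418). Kinases and ubiquitin ligases had 0 calls among 15 and 4 lower at an unadjusted p under 0.05, with 13 below 0 and a median of -0.22, but 6 below 0 and a median of 0.09 after cyclic loess. Their median was closer to 0 than the -0.31 of genes above the range of background on all 6 arrays. Ikbke, a kinase of interferon regulatory factors, had a difference of -0.59 (SE 0.15, limma adjusted p = 0.0881), and Tab2, a partner of the kinase TAK1, a difference of -0.12 (SE 0.15, adjusted p = 0.555).

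Negative regulators had 0 calls by limma among 15 and 3 lower at an unadjusted p under 0.05, with 13 below 0 and a median of -0.23, and 7 below 0 after cyclic loess. Dusp1, a phosphatase of MAP kinases, had a difference of -0.58 (SE 0.22, limma adjusted p = 0.141). The pathway's transcription factors had 0 calls among 11, with 1 lower at an unadjusted p under 0.05. Jun and Fos, the AP-1 subunits, had differences of 0.052 (SE 0.16, limma adjusted p = 0.821) and -0.30 (SE 0.18, adjusted p = 0.26). Of 22 cytokine and effector genes that the receptors switch on 0 were called, and 13 were in the range of background on every array, Il6, Ifnb1 and Il12b among them. Tnf was at 8.62, 9.44 and 8.46 in uninduced and 8.66, 9.45 and 8.33 on induced arrays A to C, with overlapping groups. Ccl3, a chemokine gene, was at 12.83 ± 0.09 and 12.16 ± 0.53 (SD, n = 3 each; limma adjusted p = 0.125). At an unadjusted p under 0.05, 4 of the 22 were higher and 5 lower. Cytosolic sensors and adaptors, most of them for nucleic acids, had 0 calls by limma among 12. At an unadjusted p under 0.05, 1 was higher and 4 were lower. The list also holds Nod1, Nod2 and Nlrp3, which are not sensors of nucleic acids, and Nod1 was among the 4 lower. Mavs, the adaptor of cytosolic RNA sensors, had a difference of -0.34 (SE 0.13, limma adjusted p = 0.14), and Aim2, a DNA sensor, a difference of -0.49 (SE 0.15, adjusted p = 0.118).

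**Figure D4:**
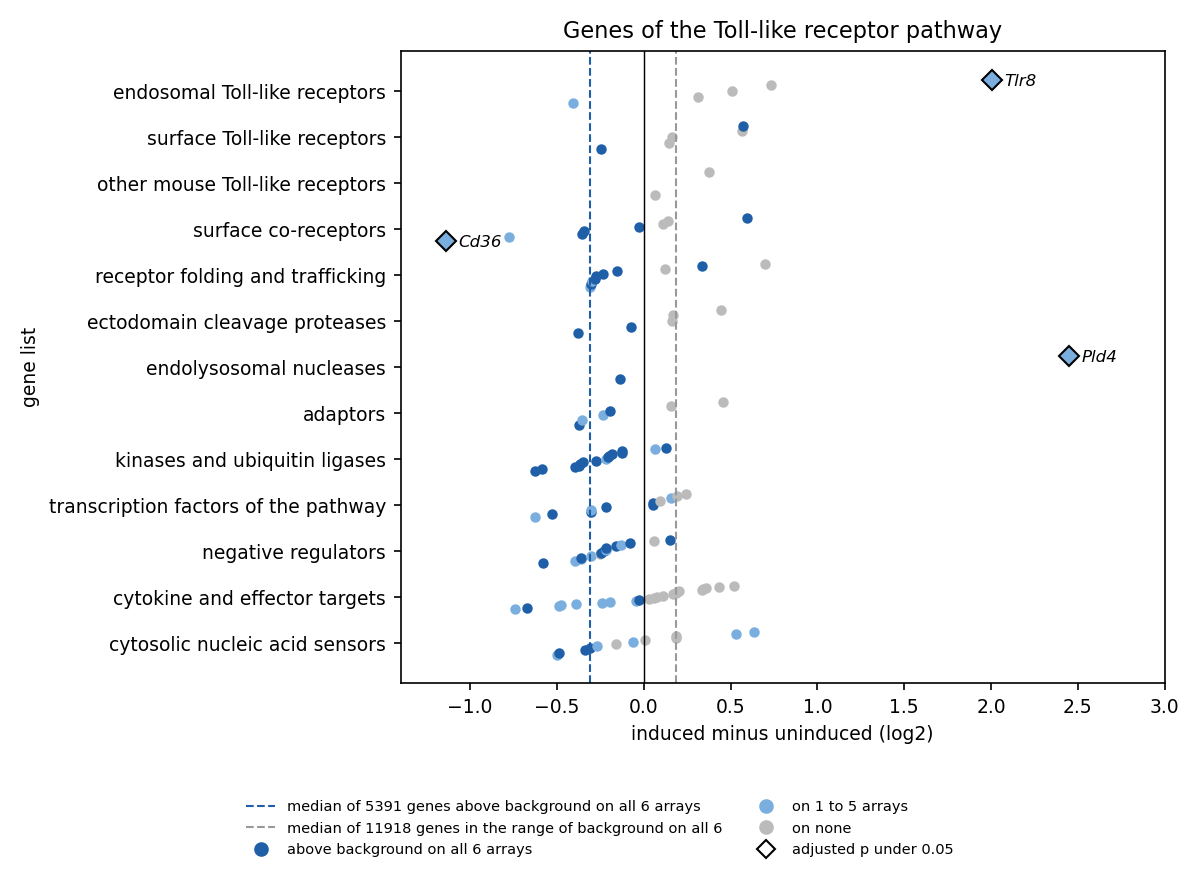
Change of each gene (horizontal axis, induced minus uninduced, log2) in the receptor and pathway lists (vertical axis), coloured by the number of arrays on which it was above the range of background; dashed lines are the medians of genes above that range on all 6 arrays (-0.31) and of genes in it on all 6 (0.19). Diamonds are the genes past the test, Tlr8, Pld4 and Cd36; the other genes lie closer to 0.

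Some markers of macrophages, neutrophils and monocytes were called higher, as Tlr8 was, where 0.374% of all genes tested were. Of 12 macrophage markers 4 rose (Adgre1, Cd68, Mpeg1 and Mrc1) and 0 fell, and their summed level on the linear scale was 1246 to 1423 on the uninduced and 2434 to 3271 on the induced arrays, while 7 of the 12 were never above the range of background. Of 13 neutrophil markers 5 rose (S100a9, Ltf, Mmp8, Cxcr2 and Mpo) and 3 had a difference below 0, with summed levels of 29325 to 31534 and 32823 to 35702. Of 7 monocyte markers 2 rose, Ccr2 and Treml4, and 2 had a difference below 0, F13a1 among them (-0.32, SE 0.13, limma adjusted p = 0.151). The summed levels of the monocyte list overlapped, at 10330 to 11402 and 10755 to 11088. Ccr2 was above the range of background on none of the arrays. After centring on the reference genes 2 macrophage, 3 neutrophil and 0 monocyte markers were called higher. The part of these cell types in the rise of Tlr8 was not tested. Markers of cells known for Tlr7 and Tlr9 had 0 calls. For plasmacytoid dendritic cells these were 9 genes (5 in the range of background on all 6 arrays, Siglech among them; summed levels 1226 to 1418 and 1220 to 1264), and for B cells 10 genes (8 in that range, Ms4a1 and Cd79a among them; 739 to 808 and 841 to 875). Of 10 markers of conventional dendritic cells, some of which are known for Tlr3, 0 were called and 8 lay in that range, Flt3 and Xcr1 among them. By limma at an unadjusted p under 0.05, 1 marker was higher in each of the plasmacytoid, B cell and conventional dendritic lists. In the plasmacytoid list 1 was lower, Tcf4, which was above the range of background on all 6 arrays. Its difference was -0.70 (SE 0.17, limma adjusted p = 0.0822). Of all genes tested 11.4% were higher and 16.9% lower at that unadjusted threshold.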

How the data were processed

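Affymetrix Mouse Gene 2.0 ST arrays, 1 for each of 6 samples, measured RNA, and samples were grouped by their titles. The authors deposited log2 values for 41345 transcript clusters; per the submitters' processing notes Partek and build mm10 were used, with version, background correction and normalization not given in the sources used here. The log2 scale was read from the values, which run from 2.86 to 14.03. GEO's platform annotation gave 1 symbol to 23521 clusters, several to 1814, and 16010 were not listed. The brightest cluster stood for each of 22180 genes; the members had 1 each. Coordinates are from RefSeq's GRCm38.p6 table, the assembly also called mm10.

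Differences were tested by limma 3.58.1 under R 4.3.3 (functions lmFit and eBayes, two-sided; Benjamini-Hochberg over all genes tested; threshold 0.05; no filter, no covariate), a test checked on simulated data. The arrays' number, 3 per group, limits the precision. An exact permutation test was used for differences between neighbouring genes. Members and lists were chosen with earlier results of these data known; of 242 listed names 221 were found with 1 symbol. All members are named, as are all measured genes of the lists of co-receptors, trafficking, proteases, nucleases and adaptors. A gene named from another list was called or among its 2 brightest, apart from Nod1, Nod2 and Nlrp3, named for what they sense. Il6, Ifnb1, Il12b and the markers given as lying in the range of background were picked after their values were seen. The 3 genes nearest to a called member are named by Euclidean distance among genes above the range of background on at least 1 array. Alternatives were quantile normalization, a replicate block by letter, median centring, cyclic loess, filters on dim genes, a variance trend, array weights, the mean of a gene's clusters, a threshold of 0.01 and leaving out each array; centring on olfactory and vomeronasal receptor genes, and omitting both induced B and induced C, were chosen after seeing the data.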

Additional observations from a re-analysis of the deposited data

How the results depend on the processing

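Tlr8 was called under all 18 alternatives, with a difference between 1.69 and 2.30 (adjusted p at most 0.0346), and among the alternatives array weights alone called members lower. Of the members 2 were called higher, Tlr8 and Tlr13, with the replicate block, without genes under the 25th percentile and with trend and robust moderation; array weights called 6 higher and 2 lower (Tlr4 and Tlr7), among 5825 and 5681 genes in all. With the replicate block Tlr13 had a difference of 0.73 (adjusted p = 0.028). Deviations of the uninduced and induced arrays of the same letter correlated at -0.31 for A, -0.28 for B and 0.42 for C. Being of mixed sign and from so few arrays, these values do not decide whether the letters pair the arrays. Leaving out 1 array gave 1 to 5 members higher (5 without induced A, where Tlr3, Tlr5, Tlr9 and Tlr13 joined Tlr8) and 1 to 5 pathway genes higher and 0 to 15 lower, the highest of each without induced A. Signs turned for Tlr1 (-0.037) and Tlr4 (0.062) after cyclic loess, for Tlr1 (-0.15), Tlr6 (-0.17) and Tlr9 (-0.0064) after centring on the olfactory and vomeronasal receptor genes, and for Tlr9 (-0.068) without induced B and C together. The endosomal and surface medians were 0.37 and 0.022 after median centring, 0.33 and 0.062 after cyclic loess, and 0.19 and -0.15 after centring on those receptor genes, which also left 0 pathway genes higher. The surface median was 0.21 without induced B and C, which left 0 pathway genes lower, and 0.13 to 0.21 when 1 array was left out, against an endosomal 0.47 to 0.53. The filters kept 8 and 4 of the 10 members. The cause of these differences was not tested. Signal near background limits 6 of the members.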
